A study of Homo sapiens with 66 samples.

Results

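THP-1 and NOMO-1 are established cell lines grown from acute monocytic leukaemia, and both carry a fusion of KMT2A with MLLT3. The comparison described here set the 3 untreated THP-1 libraries against the 3 untreated NOMO-1 libraries, 6 of the 66 RNA-seq libraries of a study of 11 acute myeloid leukaemia (AML) lines kept with or without the topoisomerase II poison etoposide. Untreated cells received medium for 24 h after an overnight rest, and the cells of 3 wells were pooled for each RNA extraction. Polyadenylated RNA was turned into stranded libraries. Each group is 1 cell line, so the genotype of a line cannot be told apart from any difference in its culture. The study lists the same share of serum and no supplement for both lines, and whether their media differed is not clear from it. The labels do not say whether libraries of a line came from separate cultures. The p-values therefore measure the spread between these libraries only.

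A KMT2A fusion places transcriptional elongation factors at genes that KMT2A normally keeps open, and the genes most often named as its targets in leukaemia are the HOXA cluster and the HOX partners MEIS1 and PBX3. Monocytic AML cells usually keep part of the promyelocyte and monocyte programme, which includes granule proteases, lysozyme, CD14, the macrophage colony-stimulating factor receptor CSF1R and the integrin CD11b. In bulk RNA, fewer cells that express a gene and less RNA per cell cannot be told apart.

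Between 18907941 and 20632889 reads were assigned to genes per untreated library, and reads of mitochondrial genes made up 3.59% to 3.86% of them in THP-1 and 5.22% to 6.16% in NOMO-1. Of the libraries, THP-1 replicate 2 and NOMO-1 replicate 1 stood slightly apart from the others of their line, as a chi-square statistic divided by its degrees of freedom was 11.1 or more for their pairs and 5.66 or less for the remaining pairs. Every pair of libraries differed by more than sampling noise. Levels are given as CPM (counts scaled to the same number of reads per library) after trimmed-mean scaling, in the order replicate 1, 2 and 3. Fold changes are THP-1 over NOMO-1 on the log2 scale, so a negative value means more RNA in NOMO-1, and they come with the standard error (SE) and the Benjamini-Hochberg adjusted p of the edgeR quasi-likelihood test. A gene was called when this adjusted p was below 0.05 and the fold was above 2. Where libraries of the lines are said not to overlap, this describes the values and is no support beyond the test. The share of all genes without overlap is not given here, and 12119 of 15584 genes had an adjusted p below 0.05 at any fold.

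THP-1 and NOMO-1 shared a fusion and a monocytic type and still differed at many genes. Of 15584 genes tested, 5875 were called, which is 37.7%. More RNA was found in THP-1 for 2771 of them (17.8% of genes tested) and in NOMO-1 for 3104 (19.9%). The median log2 fold change of all genes tested was 0.011. The difference was over 4-fold for 1459 genes higher in THP-1 and 1677 higher in NOMO-1, and over 16-fold for 801 and 796. Protein-coding genes made up 2085 of the genes higher in THP-1 and 2471 of those higher in NOMO-1, and long noncoding RNA genes 440 and 387. Of the genes higher in THP-1, 73 had at least 10 CPM there and 0 reads in all 3 NOMO-1 libraries, and 42 genes were at 0 in THP-1 in the same way.

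**Figure D1:**
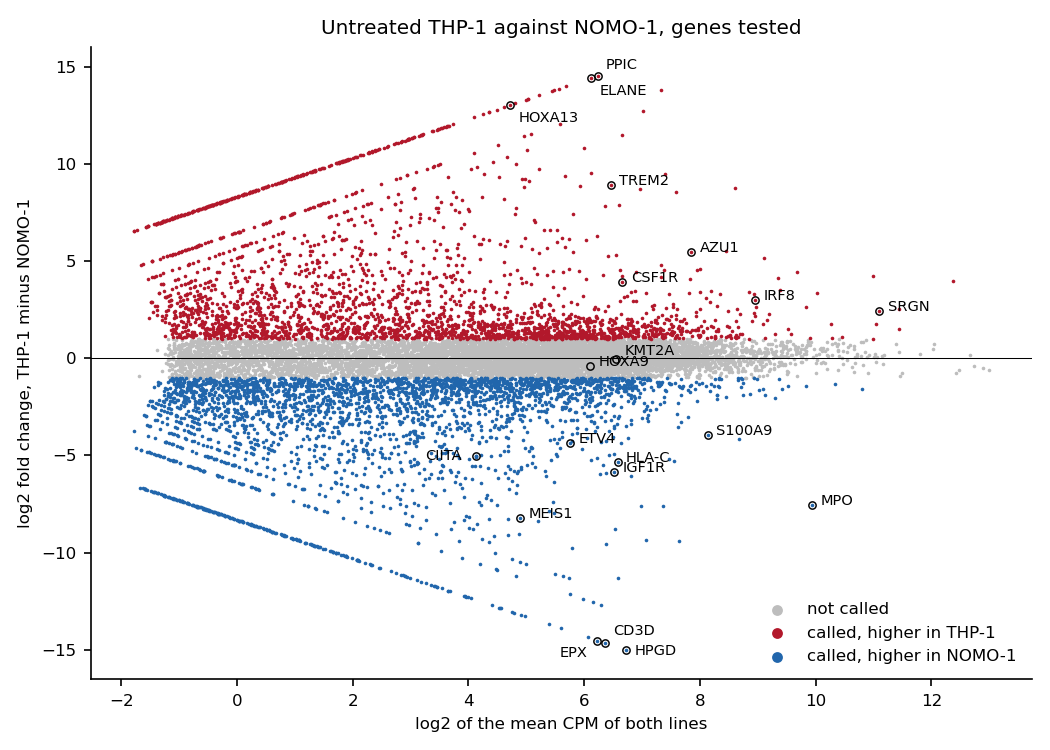
Log2 fold change (THP-1 minus NOMO-1, vertical axis) of the 15584 genes tested against the log2 of their mean CPM over both lines (horizontal axis). Each point is a gene, coloured where it was called, and the genes at the upper and lower edges have no or almost no reads in one of the lines.

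Neither fusion gene was called, in gene counts that do not separate fused from unfused transcripts. KMT2A, a histone H3 lysine 4 methyltransferase, was at 101, 83.4 and 93.8 CPM in THP-1 and 106, 89.3 and 87.97 CPM in NOMO-1, and the lines overlapped (log2 fold change -0.03, SE 0.087, adjusted p = 0.792), with the sign reversed without NOMO-1 replicate 1 (0.06) or THP-1 replicate 2 (0.04). MLLT3, its fusion partner and a reader of acetylated and crotonylated histones, was at 8.67, 10.7 and 9.76 CPM in THP-1 and 13.1, 15.3 and 12.3 CPM in NOMO-1. All 3 NOMO-1 libraries lay above those of THP-1 for MLLT3, with a fold under the threshold (log2 fold change -0.48, SE 0.12, adjusted p = 0.000903). None of the 8 genes for the fusion and its complex partners, among them DOT1L, MEN1, AFF1 and AFF4, was called, against 37.7% of all genes tested.

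The HOXA cluster was divided between the lines by position. HOXA13, at chr7:27193503-27200091 (GRCh38, minus strand), lies at its posterior end, and HOXA2 and HOXA3 are genes of anterior identity. HOXA3 was at 0.319, 0.472 and 0.427 CPM in THP-1 and 15.2, 16.4 and 19.1 CPM in NOMO-1, and was 41.7-fold higher in NOMO-1 (log2 fold change -5.36, SE 0.201, adjusted p = 3.19e-17). HOXA7 was at 1.54, 1.78 and 1.76 CPM in THP-1 and 31.1, 38.1 and 34.5 CPM in NOMO-1, and was 20.4-fold higher in NOMO-1 (log2 fold change -4.34, SE 0.138, adjusted p = 1.35e-18). The groups did not overlap for either gene, and HOXA7 was higher in NOMO-1 than in any other of the 11 lines. HOXA2 had 3 reads in all THP-1 libraries together and stood at 2.46, 1.88 and 2.08 CPM in NOMO-1, a ratio of 40.3 (95% counting interval 13.5 to 198). HOXA4, HOXA5 and HOXA6, which lie between these genes, were also higher in NOMO-1, with log2 fold changes of -2.49, -2.75 and -3.82.

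The middle of the cluster was close to equal and its posterior end was reversed. HOXA9, the member most closely tied to KMT2A-fused leukaemia, was at 54.6, 60.9 and 61.5 CPM in THP-1 and 72.8, 84.03 and 79.2 CPM in NOMO-1, below the threshold for a call (log2 fold change -0.42, SE 0.0818, adjusted p = 7.42e-05). HOXA10 was at 55.7, 61.1 and 58.5 CPM in THP-1 and 46.4, 52.3 and 48.2 CPM in NOMO-1 (log2 fold change 0.25, SE 0.0817, adjusted p = 0.00714). In neither gene did the lines overlap, although the folds were small. HOXA11 was at 33.2, 29.5 and 33.8 CPM in THP-1 and 0.289, 0.141 and 0.0508 CPM in NOMO-1, and was 201-fold higher in THP-1 (log2 fold change 7.58, SE 0.215, adjusted p = 1.37e-19). HOXA13, which patterns the distal limb and hindgut, was at 51.4, 52.1 and 54.4 CPM in THP-1 and 0 CPM in every NOMO-1 library, and was at least 1084-fold higher in THP-1 (adjusted p = 1.69e-20). The 2 posterior genes were thus read in every THP-1 library at 29.5 CPM or more and were at or near 0 in NOMO-1.

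The HOX cofactors did not follow 1 pattern. MEIS1, the homeodomain cofactor that HOXA9 pairs with in leukaemic transformation, was at 0.213, 0.157 and 0.213 CPM in THP-1 and 62.04, 56.1 and 59.9 CPM in NOMO-1, and was 305-fold higher in NOMO-1 (log2 fold change -8.21, SE 0.174, adjusted p = 8.44e-22). Its THP-1 libraries reached at most 0.213 CPM, far below every NOMO-1 library. PBX3, the other cofactor, was at 176, 171 and 164 CPM in THP-1 and 91.1, 94.8 and 88.2 CPM in NOMO-1 and did not pass the fold threshold (log2 fold change 0.90, SE 0.0723, adjusted p = 6.79e-11). MEF2C, a transcription factor raised in KMT2A-rearranged AML, was at 367, 358 and 342 CPM in THP-1 and 136, 133 and 122 CPM in NOMO-1, and was 2.73-fold higher in THP-1 (log2 fold change 1.45, SE 0.073, adjusted p = 9.35e-15). ZEB2, a repressor of epithelial genes, and SENP6, a SUMO protease, were also higher in THP-1 (log2 fold changes 1.81 and 1.30), whereas CDK6 (-0.58) and JMJD1C (0.69) were not called. Of the 18 tested members of this target list, 5 were higher in THP-1, 7 were higher in NOMO-1 and 6 were not called (66.7% called, against 37.7% of all genes), with a median of -0.50 against 0.011 for all genes. In the HOXB cluster 4 of 10 genes passed the filter on low counts. HOXB3 and HOXB4 were higher in NOMO-1 (log2 fold changes -1.73 and -1.69), and HOXB6, at 1.702, 2.15 and 2.19 CPM in THP-1 and 0, 0.0469 and 0 CPM in NOMO-1, was higher in THP-1 by a ratio of 124 (95% counting interval 21.9 to 4956, adjusted p = 1.9e-10).

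**Figure D2:**
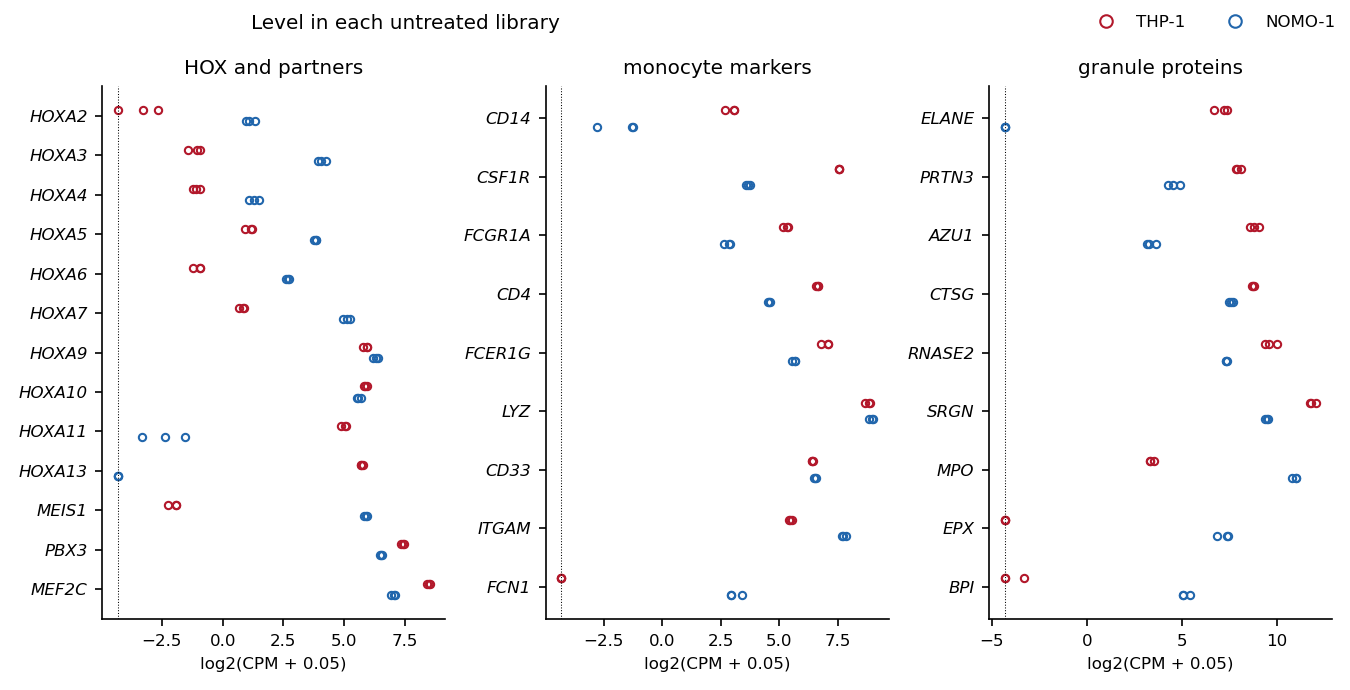
Level of each gene in every untreated library as log2(CPM + 0.05), 1 open circle per library and 1 panel per gene group, with the dotted line at 0 CPM. HOXA2 to HOXA7 and MEIS1 are higher in NOMO-1, HOXA11 and HOXA13 in THP-1, and the granule genes split between the lines.

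Both lines held monocyte transcripts at similar summed levels, while single markers differed in both directions. Lysozyme, which was not called, had the highest level of the markers in either line. The 12 defining markers summed to between 1169 and 1276 CPM in THP-1 and between 1012 and 1068 CPM in NOMO-1. Of these, 5 were higher in THP-1, 2 in NOMO-1 and 5 were not called (58.3% called, against 37.7% of all genes), with a median log2 fold change of 0.66. Lysozyme (LYZ), which breaks bacterial cell walls, was at 402, 469 and 456 CPM in THP-1 and 514, 455 and 494 CPM in NOMO-1, and the lines overlapped (log2 fold change -0.14, SE 0.0755, adjusted p = 0.0915). The lines also overlapped or stood within 2-fold for the sialic acid receptor CD33 (-0.13), the signalling adaptor TYROBP (0.88) and MNDA (0.44). CD68 had a mean of 0.512 CPM in THP-1 and 0.887 CPM in NOMO-1. In GENCODE 44, 81.6% of its exonic bases are shared with another annotated gene on its strand. Reads on shared bases are counted for neither gene, but the counts used GENCODE 25, in which the overlap was not checked.

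CSF1R, the receptor for macrophage colony-stimulating factor, was at 191, 190 and 189 CPM in THP-1 and 12.8, 13.3 and 11.9 CPM in NOMO-1, and was 15.01-fold higher in THP-1 (log2 fold change 3.91, SE 0.0855, adjusted p = 1.41e-21). THP-1 had the highest CSF1R level of the 11 untreated lines and NOMO-1 the seventh. CD14, the co-receptor for lipopolysaccharide, was at 6.33, 8.24 and 8.22 CPM in THP-1 and 0.0965, 0.375 and 0.355 CPM in NOMO-1, and was 27.6-fold higher in THP-1 (log2 fold change 4.75, SE 0.269, adjusted p = 8.53e-14). FCGR1A, the high-affinity IgG receptor CD64, was at 36.01, 41.8 and 40.7 CPM in THP-1 and 7.14, 7.36 and 6.14 CPM in NOMO-1, and was 5.74-fold higher in THP-1 (log2 fold change 2.52, SE 0.107, adjusted p = 3.72e-16). CD4 (2.06) and the Fc receptor gamma chain FCER1G (1.34) were higher in THP-1 as well. The opposite held for ITGAM, which encodes CD11b of the complement receptor 3, at 43.99, 42.6 and 47.1 CPM in THP-1 and 215, 232 and 206 CPM in NOMO-1, and 4.88-fold higher in NOMO-1 (log2 fold change -2.29, SE 0.0792, adjusted p = 6.55e-18). FCN1, the secreted lectin M-ficolin of classical monocytes, was at 0 CPM in every THP-1 library and 7.53, 10.5 and 7.61 CPM in NOMO-1, and was at least 161-fold higher in NOMO-1 (adjusted p = 3.3e-14). No library of one line entered the range of the other for CSF1R, CD14, FCGR1A, ITGAM or FCN1.

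Of 19 tested receptors of macrophages, 9 were higher in THP-1 and 7 in NOMO-1, where 17.8% and 19.9% of all genes tested were. TREM2, the lipid-sensing receptor of microglia and tissue macrophages, was at 157, 186 and 182 CPM in THP-1 and 0.338, 0.281 and 0.457 CPM in NOMO-1, and was 489-fold higher in THP-1 (log2 fold change 8.92, SE 0.153, adjusted p = 2.09e-23). All 3 THP-1 libraries were at 157 CPM or more while NOMO-1 reached at most 0.457, and no other line of the 11 had a higher level than THP-1. The scavenger receptor CD36 (log2 fold change 4.33), the IgG receptor FCGR2A (1.63) and the inhibitory receptor LILRB4 (3.92) were higher in THP-1. CD300A, an inhibitory receptor for phosphatidylserine, was at 8.67, 10.9 and 11.2 CPM in THP-1 and 134, 144 and 129.7 CPM in NOMO-1, and was 13.3-fold higher in NOMO-1 (log2 fold change -3.73, SE 0.099, adjusted p = 4.12e-20). CD86, the T-cell costimulatory ligand, was chosen after its values were seen and was likewise higher in NOMO-1 (0.479, 1.15 and 0.9604 CPM in THP-1 and 34.1, 28.2 and 32.2 CPM in NOMO-1; log2 fold change -5.17, SE 0.175, adjusted p = 4.22e-18).

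Of 12 tested granule proteins of promyelocytes, 7 were higher in THP-1 and 3 in NOMO-1 (83.3% called, against 37.7% of all genes), with a median log2 fold change of 1.64. Neutrophil elastase (ELANE) was at 104, 146 and 166 CPM in THP-1 and 0 CPM in every NOMO-1 library, and was at least 2853-fold higher in THP-1 (adjusted p = 2.2e-19). AZU1, the serine protease homologue azurocidin, was at 387, 444 and 523 CPM in THP-1 and 8.88, 9.65 and 12.1 CPM in NOMO-1, and was 44.1-fold higher in THP-1 (log2 fold change 5.47, SE 0.122, adjusted p = 1.94e-21). PRTN3, proteinase 3, was named after its values were seen and was at 226, 235 and 277 CPM in THP-1 and 22.96, 19.2 and 29.7 CPM in NOMO-1 (log2 fold change 3.36, SE 0.117, adjusted p = 6.96e-18). AZU1, PRTN3 and ELANE are neighbours within 31.1 kb of chromosome 19 (chr19:825097-856247), and all 3 were higher in THP-1. Among the 11 lines, the highest AZU1 level was that of THP-1 and the next to lowest that of NOMO-1. CTSG, cathepsin G, was also named after its values were seen and was at 407, 444 and 419 CPM in THP-1 and 192, 175 and 203 CPM in NOMO-1 (log2 fold change 1.16, SE 0.0745, adjusted p = 1.05e-12). RNASE2, the eosinophil-derived neurotoxin, was at 761, 1017 and 660.5 CPM in THP-1 and 166, 161 and 160.3 CPM in NOMO-1, and was 5.004-fold higher in THP-1 (log2 fold change 2.32, SE 0.108, adjusted p = 2.04e-15). SRGN, the proteoglycan core that packs granule contents, was at 3448, 4265 and 3357 CPM in THP-1 and 722, 664 and 694 CPM in NOMO-1, and was 5.32-fold higher in THP-1 (log2 fold change 2.41, SE 0.0859, adjusted p = 1.12e-17).

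MPO, which makes hypochlorous acid in neutrophil granules, was at 11.4, 9.97 and 9.92 CPM in THP-1 and 2018, 1781 and 2043 CPM in NOMO-1, and was 186-fold higher in NOMO-1 (log2 fold change -7.54, SE 0.103, adjusted p = 1.31e-24). EPX, eosinophil peroxidase, is not on that list, was named for the size of its difference and was at 0 CPM in every THP-1 library and 168, 114 and 167 CPM in NOMO-1, and was at least 2826-fold higher in NOMO-1 (adjusted p = 9.05e-20). The genes for MPO and EPX lie within 88.2 kb of chromosome 17 (chr17:58192726-58280935). The groups were far apart for both, and MPO was still read in every THP-1 library while EPX was not. BPI, the bactericidal protein that binds lipopolysaccharide, was named after its values were seen and was at 0, 0.0525 and 0 CPM in THP-1 and 33.4, 42.7 and 33.6 CPM in NOMO-1, higher in NOMO-1 by a ratio of 2078 (95% counting interval 373 to 82130, adjusted p = 1.41e-19). S100A9, a subunit of the calcium-binding calprotectin, was at 27.7, 38.5 and 35.5 CPM in THP-1 and 501, 558 and 534 CPM in NOMO-1, and was 15.7-fold higher in NOMO-1 (log2 fold change -3.97, SE 0.1, adjusted p = 1.61e-20). Its partner S100A8, named after its values were seen, was at 12.8, 22.9 and 16.3 CPM in THP-1 and 198, 196 and 188 CPM in NOMO-1 (log2 fold change -3.48, SE 0.126, adjusted p = 1.46e-17). S100A6, S100A11 and the granule tetraspanin CD63 were higher in THP-1 (log2 fold changes 2.19, 1.55 and 1.64).

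Of the 7 genes of the phagocyte NADPH oxidase, 4 were higher in NOMO-1 and 1 in THP-1 (71.4% called, against 37.7% of all genes). CYBB, the catalytic subunit gp91phox, was at 28.7, 26.1 and 26.1 CPM in THP-1 and 238, 242 and 202 CPM in NOMO-1, and was 8.43-fold higher in NOMO-1 (log2 fold change -3.08, SE 0.089, adjusted p = 2.09e-19). Its membrane partner CYBA was at 346, 441 and 462 CPM in THP-1 and 125, 139 and 158 CPM in NOMO-1, and was 2.96-fold higher in THP-1 (log2 fold change 1.56, SE 0.0973, adjusted p = 5.29e-13). The 2 chains of the flavocytochrome therefore differed in opposite directions. The cytosolic subunit NCF4 (log2 fold change -1.50) and the GTPase RAC2 (-1.05, and -0.996 and no longer called without NOMO-1 replicate 3) were higher in NOMO-1.

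Among 24 tested transcription factors of the myeloid lineage, 8 were higher in THP-1, 6 in NOMO-1 and 10 were not called (58.3% called, against 37.7% of all genes). SPI1, which encodes the myeloid master regulator PU.1, was named after its values were seen and was at 158, 168 and 181 CPM in THP-1 and 146, 156 and 176 CPM in NOMO-1 (log2 fold change 0.09, SE 0.0798, adjusted p = 0.336). IRF8, which directs monocyte and dendritic cell fate, was at 889.6, 892 and 872 CPM in THP-1 and 104, 118 and 108 CPM in NOMO-1, and was 8.03-fold higher in THP-1 (log2 fold change 3.01, SE 0.0758, adjusted p = 1.61e-20). CEBPA, which drives granulocyte and monocyte commitment, was at 523, 625 and 661 CPM in THP-1 and 107, 109 and 121 CPM in NOMO-1, and was 5.36-fold higher in THP-1 (log2 fold change 2.42, SE 0.0873, adjusted p = 1.41e-17). THP-1 had the highest CEBPA level of the 11 lines. RUNX1, a core factor of blood formation, was higher in THP-1 (1.10, and 0.98 and not called when scaled by library size alone). IKZF1, which encodes the lymphoid and myeloid regulator Ikaros, was at 167, 166 and 160.2 CPM in THP-1 and 438, 459 and 432 CPM in NOMO-1, and was 2.696-fold higher in NOMO-1 (log2 fold change -1.43, SE 0.0697, adjusted p = 4.93e-15). NOMO-1 had the highest IKZF1 level of the 11 lines and THP-1 the next to lowest.

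Of 12 tested genes of stem and progenitor cells, 7 were higher in NOMO-1 and 2 in THP-1 (75% called, against 37.7% of all genes), with a median log2 fold change of -1.76. SPINK2, a protease inhibitor of primitive blood cells, was at 0 CPM in every THP-1 library and 82.01, 116 and 91.5 CPM in NOMO-1, and was at least 1819-fold higher in NOMO-1 (adjusted p = 9.77e-20). ANGPT1, a ligand of the endothelial and stem cell receptor TIE2, was at 0, 0.0525 and 0 CPM in THP-1 and 116, 108 and 100 CPM in NOMO-1, and was higher in NOMO-1 by a ratio of 6124 (95% counting interval 1099 to 241900, adjusted p = 1.44e-22). MSI2, an RNA-binding protein of stem cells, was at 24.3, 23.6 and 19.4 CPM in THP-1 and 91.5, 96.5 and 90.7 CPM in NOMO-1, and was 4.14-fold higher in NOMO-1 (log2 fold change -2.05, SE 0.0911, adjusted p = 8.3e-16). CD38, a surface enzyme that appears as progenitors mature, was at 81.2, 76.2 and 78.4 CPM in THP-1 and 23.2, 22.5 and 23.9 CPM in NOMO-1, and was 3.38-fold higher in THP-1 (log2 fold change 1.76, SE 0.0825, adjusted p = 2.4e-15). The stem cell antigen CD34 was at 0 in THP-1 and 0.471 CPM in NOMO-1 and did not pass the filter on low counts.

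MHC class II genes differed strongly, and not all in the direction of their transactivator. CIITA, the transactivator on which class II transcription depends, was at 1.38, 1.15 and 0.534 CPM in THP-1 and 31.7, 37.6 and 32.1 CPM in NOMO-1, and was 33.04-fold higher in NOMO-1 (log2 fold change -5.04, SE 0.174, adjusted p = 6.44e-18). The alpha chain HLA-DRA was at 1.01, 0.577 and 0.8004 CPM in THP-1 and 41.8, 42.3 and 45.03 CPM in NOMO-1, and was 54.1-fold higher in NOMO-1 (log2 fold change -5.75, SE 0.151, adjusted p = 3.5e-20). HLA-DPA1 and HLA-DPB1 were higher in NOMO-1 by log2 fold changes of -6.22 and -5.16. CD74, the invariant chain that guides class II molecules, was at 145, 139 and 138 CPM in THP-1 and 527, 570.5 and 588 CPM in NOMO-1, and was 3.99-fold higher in NOMO-1 (log2 fold change -1.996, SE 0.073, adjusted p = 1.91e-17). The beta chain HLA-DRB1 had the reverse order, at 33.9, 35.1 and 34.8 CPM in THP-1 and 3.14, 4.45 and 4.52 CPM in NOMO-1, and was 8.58-fold higher in THP-1 (log2 fold change 3.10, SE 0.122, adjusted p = 7.87e-17). HLA-DRB5 (3.49) and HLA-DQB1 (5.60) were also higher in THP-1, so the alpha and beta chains of HLA-DR differed in opposite directions. In all, 5 of the 12 tested were higher in NOMO-1 and 3 in THP-1 (66.7% called, against 37.7% of all genes), and the RFX subunits RFX5, RFXAP and RFXANK were not called. HLA genes vary greatly between people and have close copies, and they were counted against 1 reference. The part of this in the HLA values was not tested.

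In MHC class I, 6 of 16 tested genes were higher in NOMO-1 and 1 in THP-1, and the 43.8% called is near the 37.7% of all genes. HLA-C was at 4.95, 4.04 and 5.02 CPM in THP-1 and 177, 182 and 201 CPM in NOMO-1, and was 39.95-fold higher in NOMO-1 (log2 fold change -5.32, SE 0.106, adjusted p = 2.79e-22). HLA-B was at 26.7, 28.96 and 30.4 CPM in THP-1 and 227, 238 and 266 CPM in NOMO-1, and was 8.49-fold higher in NOMO-1 (log2 fold change -3.08, SE 0.0867, adjusted p = 1.19e-19). The less variable HLA-E (log2 fold change -1.72) had the same direction. B2M, the light chain shared by all class I molecules, was named after its values were seen and was at 582, 719.5 and 550.4 CPM in THP-1 and 653, 609 and 584 CPM in NOMO-1, with overlapping lines (log2 fold change 0.01, SE 0.0852, adjusted p = 0.962). The peptide transporter TAP1 (0.48) and the class I regulator NLRC5 (-0.47) were not called, and both were named after their values were seen.

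Of 43 tested interferon-stimulated genes and their regulators, 18 were higher in THP-1, 6 in NOMO-1 and 19 were not called, with a median log2 fold change of 0.43. Among all genes tested, 17.8% were higher in THP-1 and 19.9% in NOMO-1. IFNAR2, a chain of the type I receptor, and IFITM3, which blocks virus entry, were higher in THP-1 (log2 fold changes 1.09 and 1.32). Scaled by library size alone, IFNAR2 was at 0.975 and not called. IFIT1, which binds foreign RNA caps, was at 6.38, 10.1 and 7.36 CPM in THP-1 and 1.21, 0.422 and 0.711 CPM in NOMO-1 (log2 fold change 3.34, SE 0.25, adjusted p = 1.69e-11). IFI44L, which feeds back on the interferon response, was at 2.39, 2.36 and 2.99 CPM in THP-1 and 0 CPM in every NOMO-1 library, and was at least 53.1-fold higher in THP-1 (adjusted p = 4.81e-11). IFI6, an inhibitor of virus replication, was at 16.8, 21.8 and 21.02 CPM in THP-1 and 3.23, 3.23 and 3.198 CPM in NOMO-1 (log2 fold change 2.62, SE 0.135, adjusted p = 1.4e-14). These 3 genes were named after their values were seen, and their groups did not overlap. GBP2, a guanylate-binding protein induced by interferon gamma, had the reverse order, at 3.35, 3.73 and 4.21 CPM in THP-1 and 43.9, 39.3 and 37.2 CPM in NOMO-1, and was 10.7-fold higher in NOMO-1 (log2 fold change -3.41, SE 0.12, adjusted p = 8.36e-18).

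The interferon response element, to which IRF proteins bind, holds a core that was searched as GAAANNGAA on both strands. The 250 bases before the start of IFIT1 (chr10:89392373-89392622, plus strand) and of IFI44L (chr1:78620198-78620447, plus strand) are printed from RefSeq (GRCh38.p14), since both genes were higher in THP-1, with matches in capitals.
IFIT1: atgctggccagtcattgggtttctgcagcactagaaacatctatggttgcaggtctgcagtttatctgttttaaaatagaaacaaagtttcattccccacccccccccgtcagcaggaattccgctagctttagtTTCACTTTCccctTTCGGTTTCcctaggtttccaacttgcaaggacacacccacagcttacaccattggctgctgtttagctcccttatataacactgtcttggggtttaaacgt
IFI44L: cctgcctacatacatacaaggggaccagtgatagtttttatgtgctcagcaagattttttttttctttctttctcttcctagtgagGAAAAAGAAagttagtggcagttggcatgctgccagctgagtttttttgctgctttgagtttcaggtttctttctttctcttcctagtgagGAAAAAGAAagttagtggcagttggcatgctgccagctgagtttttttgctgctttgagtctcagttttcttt
Each window held 2 matches, on the minus strand in IFIT1 and on the plus strand in IFI44L. The 2 matches of IFI44L have the same letters and lie in 2 copies of a stretch that its window repeats, whereas those of IFIT1 differ. Over the table, 2416 of 35116 promoter entries (6.88%) held at least 1 match, as did 19 of the 32 genes of the interferon list that have an entry (59.4%). The first share is over entries and the second over genes, each taken by its entry with the most matches, so they are not like measures. Matches were found in called genes of both directions and in genes not called. CXCL10, GBP1, IFITM1 and ISG20, higher in NOMO-1, held 1 each. Of the genes higher in THP-1, GBP4, IFI35, IRF9 and OAS1 held 0 and the others with an entry at least 1. Genes not called held between 0 and 2. A match describes letters in a window and no binding was measured.

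Of 13 tested sensors of cytosolic nucleic acids and their adaptors, 3 were higher in THP-1 and 0 in NOMO-1 (23.1% called, against 37.7% of all genes), and 1 was higher in NOMO-1 when scaled by library size alone. STING1, the adaptor that answers cyclic dinucleotides, was at 508, 503 and 511 CPM in THP-1 and 221, 222 and 233 CPM in NOMO-1, and was 2.25-fold higher in THP-1 (log2 fold change 1.17, SE 0.0684, adjusted p = 1.63e-13). CGAS, the DNA sensor that makes those dinucleotides, was at 52.9, 57.4 and 52.9 CPM in THP-1 and 22.1, 27.98 and 23.8 CPM in NOMO-1, and was 2.21-fold higher in THP-1 (log2 fold change 1.14, SE 0.0935, adjusted p = 9.32e-11). The RNA sensor IFIH1 (MDA5) was higher in THP-1 as well (1.18). Of 26 tested Toll-like receptor, inflammasome and pyroptosis genes, 5 were higher in THP-1 and 2 in NOMO-1, which at 26.9% called is below the 37.7% of all genes. The inflammatory caspases CASP1 and CASP4 and the pore-forming GSDMD were higher in THP-1 by log2 fold changes of 1.11, 1.13 and 1.005. GSDMD was no longer called without NOMO-1 replicate 1 (0.90), THP-1 replicate 2 (0.98) or THP-1 replicate 3 (0.94), and scaling by library size alone left GSDMD at 0.89 and CASP1 at 0.99, both not called. With that scaling 3 genes of the list were higher in THP-1 and 4 in NOMO-1, so the balance turned, and without THP-1 replicate 1 or replicate 3 the genes higher in NOMO-1 were also 4. NLRP1, an inflammasome sensor, was at 0.638, 0.892 and 0.8004 CPM in THP-1 and 37.4, 36.04 and 34.8 CPM in NOMO-1, and was 46.5-fold higher in NOMO-1 (log2 fold change -5.53, SE 0.149, adjusted p = 5.77e-20). THP-1 had the lowest NLRP1 level of the 11 lines.

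Metallothioneins, small cysteine-rich proteins that bind zinc and copper, were higher in NOMO-1 in 5 of 7 tested entries and in THP-1 in 0 (71.4% called, against 37.7% of all genes), with a median log2 fold change of -1.92. MT2A was at 21.8, 21.9 and 22.5 CPM in THP-1 and 186, 194 and 229 CPM in NOMO-1, and was 9.19-fold higher in NOMO-1 (log2 fold change -3.20, SE 0.0908, adjusted p = 1.4e-19). MT1G was at 15.1, 15.7 and 14.9 CPM in THP-1 and 118, 116 and 129.6 CPM in NOMO-1, and was 7.96-fold higher in NOMO-1 (log2 fold change -2.99, SE 0.087, adjusted p = 2.28e-19). MT1H was at 0 CPM in every THP-1 library and 57.1, 56 and 67.9 CPM in NOMO-1, and was at least 1139-fold higher in NOMO-1 (adjusted p = 5.7e-20). MT1F was higher in NOMO-1 by a smaller step (-1.09), and MTF1, the zinc-sensing factor that switches these genes on, was not called (0.90). Metallothionein genes are near copies of each other on chromosome 16, so the counts of single members are uncertain.

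MTF1 binds metal response elements, whose core was searched as TGCNCNC on both strands. The windows of 250 bases before the start of MT2A (chr16:56608334-56608583, plus strand) and MT1H (chr16:56669564-56669813, plus strand), again from RefSeq (GRCh38.p14), are shown because both genes were higher in NOMO-1, and capitals mark the matches.
MT2A: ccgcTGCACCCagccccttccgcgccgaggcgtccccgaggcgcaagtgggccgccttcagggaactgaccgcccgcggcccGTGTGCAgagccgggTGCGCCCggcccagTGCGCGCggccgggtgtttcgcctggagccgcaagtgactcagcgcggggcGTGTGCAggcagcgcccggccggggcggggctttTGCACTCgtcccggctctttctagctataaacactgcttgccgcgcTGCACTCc
MT1H: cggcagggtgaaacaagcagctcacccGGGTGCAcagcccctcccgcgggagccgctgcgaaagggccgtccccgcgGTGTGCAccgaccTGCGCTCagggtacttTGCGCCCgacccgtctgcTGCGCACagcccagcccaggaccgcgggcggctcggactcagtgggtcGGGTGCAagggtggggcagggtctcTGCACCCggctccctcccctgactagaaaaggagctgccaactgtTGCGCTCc
MT2A held 7 matches and MT1H 8. At least 4 matches were found in 1.77% of all 35116 promoter entries, while 49.1% held at least 1.

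Of 31 tested cytokines, chemokines and their receptors, 16 were higher in NOMO-1 and 4 in THP-1 (64.5% called, against 37.7% of all genes), with a median log2 fold change of -1.41. CXCL8, the neutrophil attractant interleukin-8, was at 8.298, 14.2 and 9.02 CPM in THP-1 and 64.02, 50.2 and 51.6 CPM in NOMO-1, and was 5.26-fold higher in NOMO-1 (log2 fold change -2.39, SE 0.141, adjusted p = 1.86e-13). VEGFA, the endothelial growth factor, was at 11.9, 15.1 and 13.3 CPM in THP-1 and 67.8, 67.1 and 67.7 CPM in NOMO-1, and was 5.03-fold higher in NOMO-1 (log2 fold change -2.33, SE 0.0952, adjusted p = 1.64e-16). CCL2, the ligand that draws monocytes, was named after its values were seen and was at 0.319, 0.367 and 0.587 CPM in THP-1 and 37.97, 27.6 and 44.2 CPM in NOMO-1 (log2 fold change -6.41, SE 0.228, adjusted p = 1.1e-17). Its receptor CCR2 was at 288, 312 and 279.8 CPM in THP-1 and 49.7, 47.8 and 49.3 CPM in NOMO-1, and was 5.99-fold higher in THP-1 (log2 fold change 2.58, SE 0.0766, adjusted p = 3.25e-19). The ligand and its receptor were thus highest in different lines. CCR1 was higher in THP-1 (1.66).

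Of 29 tested adhesion receptors, 14 were higher in NOMO-1 and 6 in THP-1 (69% called, against 37.7% of all genes), with a median log2 fold change of -0.97. ITGB2, the beta chain that pairs with CD11a and CD11b, was at 542, 560.3 and 642 CPM in THP-1 and 224, 252 and 252 CPM in NOMO-1, and was 2.39-fold higher in THP-1 (log2 fold change 1.26, SE 0.0786, adjusted p = 5.76e-13). Its partners ITGAL (CD11a, -1.46) and ITGAM (-2.29) were higher in NOMO-1, as was ITGA4 (-1.47). CD44, the hyaluronan receptor, was at 60.96, 69.5 and 65.95 CPM in THP-1 and 327, 327 and 327 CPM in NOMO-1, and was 4.99-fold higher in NOMO-1 (log2 fold change -2.32, SE 0.0754, adjusted p = 2e-18). No library overlapped between the lines for these genes.

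Of 15 tested growth factor receptors, 3 were higher in THP-1 and 5 in NOMO-1 (53.3% called, against 37.7% of all genes). IL6R, the interleukin-6 receptor, was at 549, 529 and 565 CPM in THP-1 and 175, 194 and 171 CPM in NOMO-1, and was 3.04-fold higher in THP-1 (log2 fold change 1.60, SE 0.0734, adjusted p = 1.46e-15). IGF1R, the receptor for insulin-like growth factor 1, was at 3.99, 2.52 and 2.88 CPM in THP-1 and 180.1, 182 and 179.7 CPM in NOMO-1, and was 57.7-fold higher in NOMO-1 (log2 fold change -5.85, SE 0.117, adjusted p = 2.99e-22). NOMO-1 had the highest IGF1R level of the 11 lines and THP-1 the next to lowest. CSF3R, the granulocyte colony-stimulating factor receptor, was higher in NOMO-1 (-1.41). CSF2RA and IL3RA were listed at 0 in every library, as were nearly all of the 34 genes of the pseudoautosomal region, which drew 4 reads over all libraries, so their levels were not measured.

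RAS genes and the transcripts that follow ERK activity, many of them feedback inhibitors, were higher in NOMO-1 in 11 of 25 tested and in THP-1 in 3 (56% called, against 37.7% of all genes), with a median of -0.55. NRAS, which is mutated in many AML lines, was at 216, 228 and 209 CPM in THP-1 and 102, 86.9 and 84.1 CPM in NOMO-1, and was 2.39-fold higher in THP-1 (log2 fold change 1.25, SE 0.0807, adjusted p = 1.02e-12), the highest level of the 11 lines against the lowest. DUSP6, a phosphatase that switches ERK off, was at 46.4, 51.6 and 52.1 CPM in THP-1 and 227, 254 and 231 CPM in NOMO-1, and was 4.74-fold higher in NOMO-1 (log2 fold change -2.25, SE 0.0798, adjusted p = 1.09e-17). ETV4, an ETS factor induced by ERK, was at 4.84, 4.98 and 5.39 CPM in THP-1 and 97.5, 108 and 105 CPM in NOMO-1, and was 20.4-fold higher in NOMO-1 (log2 fold change -4.35, SE 0.101, adjusted p = 4.02e-21). ETV5, its close relative, was at 17.3, 16.4 and 18.1 CPM in THP-1 and 132, 151 and 135 CPM in NOMO-1, and was 8.06-fold higher in NOMO-1 (log2 fold change -3.01, SE 0.0882, adjusted p = 2.66e-19). CCND1, cyclin D1, was at 6.49, 8.499 and 5.98 CPM in THP-1 and 45.8, 50.2 and 49.3 CPM in NOMO-1, and was 6.93-fold higher in NOMO-1 (log2 fold change -2.79, SE 0.114, adjusted p = 1.55e-16). For these ERK-linked genes every NOMO-1 library was above every THP-1 library, while NRAS itself was the other way round.

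**Figure D3:**
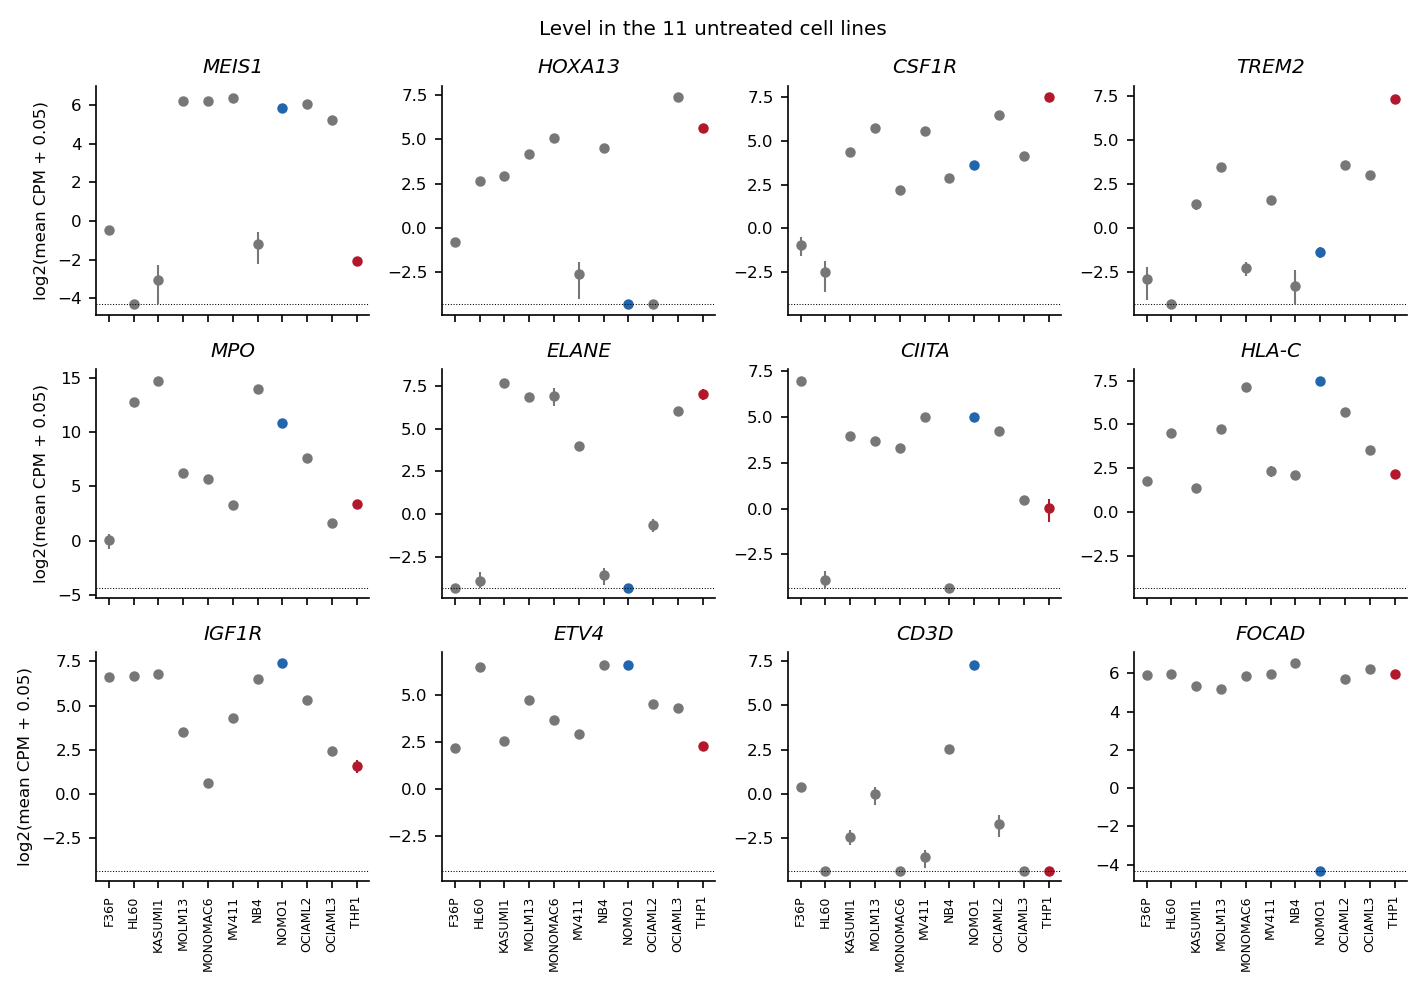
Level of 12 genes in the 11 untreated cell lines as log2(mean CPM + 0.05), with bars from the mean minus 1 SD to the mean plus 1 SD of 3 libraries, THP-1 and NOMO-1 in colour and the dotted line at 0 CPM. THP-1 is highest for CSF1R and TREM2 and NOMO-1 for HLA-C, IGF1R and CD3D, while FOCAD is at 0 in NOMO-1 alone.

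Of 22 proliferation genes tested, 2 were higher in each line and 18 were not called (18.2% called, against 37.7% of all genes). Scaled by library size alone, 4 were higher in NOMO-1. MKI67, named after its values were seen, was at 703, 586 and 695 CPM in THP-1 and 705, 569 and 595 CPM in NOMO-1 (log2 fold change 0.09, SE 0.0848, adjusted p = 0.358). CDC20, the activator of the anaphase-promoting complex, had the widest difference of the list, at 832, 838 and 909 CPM in THP-1 and 134, 129 and 152 CPM in NOMO-1, and was 6.21-fold higher in THP-1 (log2 fold change 2.63, SE 0.0796, adjusted p = 4.61e-19), the highest level of the 11 lines in THP-1 and the lowest in NOMO-1. AURKB and MCM2 were higher in NOMO-1 (log2 fold changes -1.57 and -1.01) and CENPE in THP-1 (1.15). MCM2 lost its call without NOMO-1 replicate 2 (-0.97) or THP-1 replicate 2 (-0.98), which left 1 gene higher in NOMO-1. Of 17 tested CDK inhibitors, G1 cyclins and pocket proteins, 3 were higher in THP-1 and 1 in NOMO-1 (23.5% called). The number in NOMO-1 became 2 without NOMO-1 replicate 3 or THP-1 replicate 2 and 3 without THP-1 replicate 3. CDKN1A, the inhibitor p21, was at 66.1, 77.3 and 79.8 CPM in THP-1 and 21.03, 24.98 and 25.6 CPM in NOMO-1, and was 3.11-fold higher in THP-1 (log2 fold change 1.64, SE 0.096, adjusted p = 1.71e-13). CDKN1B (1.32) and CCNE2 (1.14) were also higher in THP-1.

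In the BCL2 family 7 of 16 were higher in THP-1 and 3 in NOMO-1 (62.5% called, against 37.7% of all genes). MCL1, which guards against apoptosis, was at 528, 531 and 544 CPM in THP-1 and 244, 249.8 and 248 CPM in NOMO-1, and was 2.16-fold higher in THP-1 (log2 fold change 1.11, SE 0.0678, adjusted p = 3.62e-13). Scaled by library size alone, MCL1 was at 0.99 and not called. BAK1, which opens the mitochondrial membrane, was at 65.7, 70.1 and 72.8 CPM in THP-1 and 22.5, 19.8 and 23.5 CPM in NOMO-1, and was 3.17-fold higher in THP-1 (log2 fold change 1.67, SE 0.0894, adjusted p = 3.19e-14). BCL2A1, another guard, was at 1.86, 1.42 and 1.39 CPM in THP-1 and 16.4, 15.2 and 17.5 CPM in NOMO-1, and was 10.5-fold higher in NOMO-1 (log2 fold change -3.39, SE 0.153, adjusted p = 1.16e-15). Of 23 caspases, death receptors and apoptosis inhibitors, 8 were higher in NOMO-1 and 1, APAF1 (1.001), in THP-1, and the 39.1% called is near the 37.7% of all genes. APAF1, which starts the apoptosome, fell under the fold threshold without NOMO-1 replicate 3 (0.91), THP-1 replicate 1 (0.975) or THP-1 replicate 3 (0.99), with scaling by library size alone (0.88), and with relative log expression scaling or DESeq2 (0.998 in both). TNFRSF10D, a decoy receptor, was at 7.34, 6.92 and 6.94 CPM in THP-1 and 75.8, 92.8 and 72.8 CPM in NOMO-1, and was 11.4-fold higher in NOMO-1 (log2 fold change -3.51, SE 0.111, adjusted p = 1.08e-18).

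TOP2A, the main target of etoposide, was named after its values were seen and was at 737, 648 and 721 CPM in THP-1 and 651, 530.5 and 491 CPM in NOMO-1 (log2 fold change 0.33, SE 0.0872, adjusted p = 0.00147). Of 23 topoisomerases, repair enzymes and efflux pumps tested, 3 were higher in THP-1, 4 in NOMO-1 and 16 were not called (30.4% called, against 37.7% of all genes). TOP3A (-1.67) and the efflux pumps ABCC1 (-1.74) and ABCC5 (-1.86) were higher in NOMO-1, and XRCC4 (1.28), a ligation partner in end joining, in THP-1. Among 15 genes that the study examined as drivers of the drug's effect, a choice it made on these libraries, 1 was higher in THP-1, 3 in NOMO-1 and 11 were not called (26.7% called). PRKCH, the kinase PKC eta, was at 5.37, 5.04 and 6.19 CPM in THP-1 and 0.289, 0.703 and 0.406 CPM in NOMO-1, and was 11.9-fold higher in THP-1 (log2 fold change 3.54, SE 0.247, adjusted p = 4.52e-12). MALT1 (-1.17) joined BCL2A1 and IGF1R on the NOMO-1 side.

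Of 25 writers, erasers and readers of chromatin marks, 3 were higher in THP-1, 4 in NOMO-1 and 18 were not called (28% called, against 37.7% of all genes). EZH2, the methyltransferase of the Polycomb complex, was at 183, 156 and 176 CPM in THP-1 and 54.4, 52.9 and 49.95 CPM in NOMO-1, and was 3.27-fold higher in THP-1 (log2 fold change 1.71, SE 0.0801, adjusted p = 2.34e-15). KDM6A, the X-linked demethylase that removes the mark EZH2 sets, was named after its values were seen. KDM6A was at 0.1596, 0.367 and 0.107 CPM in THP-1 and 79.8, 71.2 and 68.9 CPM in NOMO-1 (log2 fold change -8.39, SE 0.186, adjusted p = 1.79e-21), so it was near 0 in THP-1 in all 3 libraries. DNMT3B, a de novo DNA methyltransferase, was also named after its values were seen and was at 10.9, 11.2 and 10.99 CPM in THP-1 and 94.1, 109.5 and 98.4 CPM in NOMO-1 (log2 fold change -3.19, SE 0.0937, adjusted p = 2.79e-19). KMT2D was higher in NOMO-1 (-1.33), and IDH1 (1.03) and KMT2C (1.03) in THP-1 by steps close to the threshold. Without NOMO-1 replicate 3 neither passed it, at 1 and 0.99, nor did either with scaling by library size alone, at 0.91 each, which left 1 gene of the list higher in THP-1 in both cases. KMT2C was also not called without NOMO-1 replicate 2 (0.96) or THP-1 replicate 1 (0.99).

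In cholesterol synthesis and uptake, 5 of 21 tested were higher in each line (47.6% called, against 37.7% of all genes). HMGCS1, which makes HMG-CoA for the pathway, was at 232, 268 and 248 CPM in THP-1 and 1130, 1049 and 858 CPM in NOMO-1, and was 4.06-fold higher in NOMO-1 (log2 fold change -2.02, SE 0.0898, adjusted p = 8.14e-16). DHCR7 (-1.82) had the same direction, while INSIG1, the sterol-sensing brake, was higher in THP-1 (1.38). In glucose uptake and glycolysis 2 of 23 were higher in THP-1 and 7 in NOMO-1, and the 39.1% called is near the 37.7% of all genes. PKM, pyruvate kinase, was at 718, 725 and 750 CPM in THP-1 and 1811, 1893 and 1836 CPM in NOMO-1, and was 2.52-fold higher in NOMO-1 (log2 fold change -1.34, SE 0.0678, adjusted p = 1.06e-14). HK2, hexokinase 2, was higher in NOMO-1 (-1.74), and the hexose transporters SLC2A1 (1.68) and SLC2A5 (1.74) in THP-1.

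Transcripts of other lineages were present in NOMO-1 more than in THP-1. The 16 lymphoid markers summed to between 23 and 27.4 CPM in THP-1 and between 209.7 and 241.2 CPM in NOMO-1. CD3D, a chain of the T-cell receptor complex, took most of the reads in that sum, at 0 CPM in every THP-1 library and 150.5, 179.5 and 162 CPM in NOMO-1, and was at least 3097-fold higher in NOMO-1 (adjusted p = 6.19e-22). CD3G was at least 123-fold higher in NOMO-1 (adjusted p = 9.09e-14), and CD3E, named after its values were seen, was at 0 CPM in every THP-1 library and 3.09, 4.08 and 3.25 CPM in NOMO-1. CD8A had 0 reads in NOMO-1, and CD2 and CD7 were at 0.308 and 0.207 CPM there, so other T-cell markers were at or near 0. PAX5, the B-cell factor, was at 5.64, 4.98 and 6.14 CPM in THP-1 and 0 CPM in every NOMO-1 library, and was at least 115-fold higher in THP-1 (adjusted p = 1.01e-13). The erythroid and megakaryocyte markers summed to between 11 and 13.7 CPM in THP-1 and between 37.4 and 56.6 CPM in NOMO-1. GATA1, the erythroid and megakaryocyte master factor, was at 0 CPM in every THP-1 library and 17.1, 11.3 and 16.7 CPM in NOMO-1, and was at least 284-fold higher in NOMO-1 (adjusted p = 2.92e-15). ITGA2B, the platelet integrin chain CD41, was at 1.22, 1.05 and 0.9604 CPM in THP-1 and 25.3, 12.1 and 23.8 CPM in NOMO-1, and was 18.9-fold higher in NOMO-1 (log2 fold change -4.23, SE 0.257, adjusted p = 3.3e-13), and the globin genes of the list were at or near 0 in both lines. The part of other cell types in these results was not tested.

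Among genes of the germline that tumours often switch on, 3 of 20 passed the filter on low counts. MAGEA1, an X-linked antigen, was at 0 CPM in every THP-1 library and 128, 142 and 131 CPM in NOMO-1, and was at least 2518-fold higher in NOMO-1 (adjusted p = 5.69e-22). PRAME (3.77) and MAGEB2 (4.79) were higher in THP-1. MAGE genes have close copies, so their counts are uncertain.

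Genes with reads in only one of the lines were found in both directions. PPIC, a cyclophilin of the secretory pathway, was at 143, 151 and 157 CPM in THP-1 and 0 CPM in every NOMO-1 library, and was at least 3092-fold higher in THP-1 (adjusted p = 2.79e-22). CTSL, the lysosomal protease cathepsin L, was at 103, 98.7 and 106 CPM in THP-1 and 0 CPM in every NOMO-1 library, and was at least 2111-fold higher in THP-1 (adjusted p = 1.06e-21). DNAJC15, a mitochondrial cochaperone often silenced in tumours, was at least 1833-fold higher in THP-1 (adjusted p = 1.09e-20), the glutathione transferase GSTM3 at least 1152-fold higher in THP-1 (adjusted p = 2.45e-20), and the transcription factor DMRTA2 at least 1944-fold higher in THP-1 (adjusted p = 3.02e-21).

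HPGD, which inactivates prostaglandins, was at 0 CPM in every THP-1 library and 229, 196 and 208 CPM in NOMO-1, and was at least 3982-fold higher in NOMO-1 (adjusted p = 2.28e-22). ABLIM1, an actin-binding protein, was at 0 CPM in every THP-1 library and 87.4, 85.2 and 79.2 CPM in NOMO-1, and was at least 1584-fold higher in NOMO-1 (adjusted p = 3.59e-21). LIN28B, which blocks the maturation of let-7 microRNAs in fetal blood cells, was at 0 CPM in every THP-1 library and 60.7, 52.4 and 51.6 CPM in NOMO-1, and was at least 1036-fold higher in NOMO-1 (adjusted p = 5.53e-20). S1PR4, a sphingosine phosphate receptor of blood cells, was at least 891-fold higher in NOMO-1 (adjusted p = 7.52e-20), and the acyltransferase GPAT2 at least 1012-fold higher in NOMO-1 (adjusted p = 3.13e-20). Of long noncoding RNA genes, ST3GAL3-AS1 was at 20.4, 23.6 and 24.8 CPM in THP-1 and 0 CPM in every NOMO-1 library, and was at least 472-fold higher in THP-1 (adjusted p = 6.55e-18). LINC00960 and LINC01388 were at least 460.1-fold and 307-fold higher in THP-1, and DLX6-AS1, at 0.0532, 0.0525 and 0.1601 CPM in THP-1 and 54.8, 50.1 and 48.4 CPM in NOMO-1, was 577-fold higher in NOMO-1 (log2 fold change -9.08, SE 0.208, adjusted p = 3.02e-21).

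Some silent genes lay next to each other. Protein-coding genes were counted that had at least 1 CPM in one line and at most 3 reads over the libraries of the other. NOMO-1 lacked 1 run of 8 neighbours, 1 of 4, 3 of 3 and 22 of 2, and 254 genes that stood alone. THP-1 lacked 1 run of 8, 2 of 4, 4 of 3 and 26 of 2, and 215 single genes. In NOMO-1 the run of 8 went from FOCAD to C9orf72 (chr9:20658309-27573866, GRCh38), over 6.92 Mb of the short arm of chromosome 9. All 35 annotated protein-coding genes in that stretch had 0 reads in untreated NOMO-1, and 1 read was found after etoposide. In THP-1 12 of them had reads, 16581 in all. PLAA, a ubiquitin-binding protein, was at 68.8, 79.6 and 74.3 CPM in THP-1 and 0 CPM in every NOMO-1 library, and was at least 1529-fold higher in THP-1 (adjusted p = 7.04e-21). FOCAD, a focal adhesion protein, was at 69.9, 62.01 and 64.5 CPM in THP-1 and 0 CPM in every NOMO-1 library, and was at least 1348-fold higher in THP-1 (adjusted p = 9.31e-21). The other 10 lines had between 10291 and 36704 reads in the stretch. CDKN2A, CDKN2B and MTAP, which lie inside it, had 0 reads in both lines.

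The stretch begins 35.8 kb upstream of MLLT3 (chr9:20341669-20622499, minus strand), the fusion partner gene, which was read in both lines. On the far side, ACO1, an iron-sulphur enzyme chosen after its values were seen, was at 36.2 CPM in THP-1 and 30.6 CPM in NOMO-1. A run of 4 in THP-1 lay near the other fusion gene. MPZL2, CD3E, CD3D and CD3G (chr11:118253416-118355161) had 2 reads in THP-1 in all, and CD3G ends 81.3 kb before KMT2A (chr11:118436456-118526832). UBE4A, which lies between CD3G and KMT2A and was chosen after its values were seen, was at 83.8 CPM in THP-1 and 98.8 CPM in NOMO-1. The remaining runs of 4 lay on other chromosomes, from ARHGAP5 to EGLN3 on chromosome 14 in THP-1 and from TMSB15A to GPRASP2 on X in NOMO-1. Runs of 3 lay on chromosomes 4, 6, 16, 18, 19 and X. Neither DNA copy number nor breakpoints were measured.

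In THP-1 the run of 8 was made of keratin genes from KRT86 to KRT79 on chromosome 12 (chr12:52249300-52834311), at 0 reads in THP-1 and between 1.04 and 14.9 CPM in NOMO-1. Of the 27 protein-coding keratin genes of the chromosome, 21 had reads in NOMO-1, 7393 in all, and 2 in THP-1, with 29. KRT8 and KRT18, which pair in simple epithelia and were chosen after their values were seen, were at 0.495 and 0 CPM in THP-1 and at 22.7 and 46.1 CPM in NOMO-1.

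**Figure D4:**
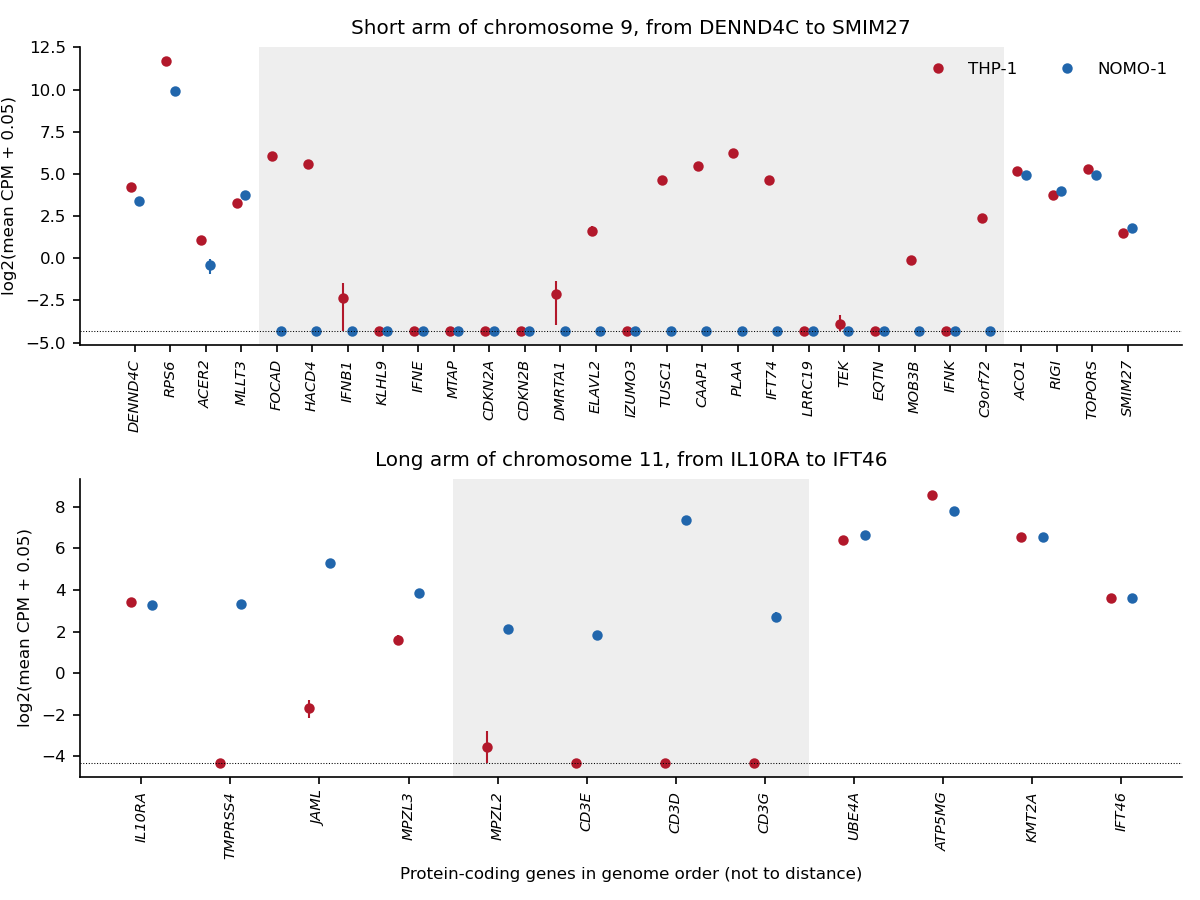
Mean level of neighbouring protein-coding genes as log2(mean CPM + 0.05), in genome order and not to distance, in THP-1 and NOMO-1, with the dotted line at 0 CPM and the silent stretch shaded. In the upper panel the genes from FOCAD to C9orf72 are at 0 in NOMO-1 while MLLT3 on one side and ACO1 on the other are read in both lines.

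By chromosome, the median log2 fold change of the tested protein-coding genes ranged from -0.387 on chromosome 17 to 0.417 on chromosome 6.

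Most differences were found again in the etoposide-treated libraries of the same lines, which share no library with the untreated ones. Each line had been given the drug for 24 h at its own IC50, so the doses differ. Of 15808 genes tested there, 5932 were called (37.5%), 2772 higher in THP-1 (17.5%) and 3160 in NOMO-1 (20%). Of the 2771 genes higher in untreated THP-1, 2138 (77.2%) were called in that direction after etoposide and 3 in the opposite one. For NOMO-1 the same held for 2391 (77.0%) of 3104, with 1 opposite. Seen from the treated side, the shared calls were 77.1% of those higher in THP-1 and 75.7% of those higher in NOMO-1. Across the 15072 genes tested in both, the log2 fold changes had a Pearson correlation of 0.962, where genes are not independent replicates.

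For ABCA1, a cholesterol exporter that was chosen after its values were seen, the log2 fold change was 1.14 without and -1.03 with the drug, and PFKFB4, PPP1R1C and LINC03007 were the others called in opposite directions. CIITA differed by -5.04 untreated and -2.44 treated, S100A9 by -3.97 and -1.57, and MEIS1 by -8.21 and -8.52. LYZ, which was not called untreated, was at 1.37 after etoposide. Whether a difference itself changed with treatment was not tested.

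In a fit of all 33 untreated libraries, THP-1 and NOMO-1 differed at 6742 of 18130 genes (37.2%), and 36 of the 55 pairs of lines had fewer calls. The lowest count, 3928, was that of MOLM13 and MV411, the highest, 8715, that of F36P and THP-1, and the median was 6488. MOLM13 and MONOMAC6 also carry the KMT2A-MLLT3 fusion. MOLM13 differed from THP-1 at 5728 genes and from NOMO-1 at 5980, and MONOMAC6 at 6488 and 6592, each fewer than between THP-1 and NOMO-1. With genes under a mean of 5 CPM left out, 26 pairs had fewer calls.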

How the data were processed

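The authors deposited gene-level read counts for each library. Per the labels and the methods of the study, RNA was made into stranded mRNA libraries, checked with FastQC 0.11.5 and aligned with STAR 2.5.3a to GRCh38.p7, with annotation GENCODE 25, and the authors' own comparisons used edgeR 3.20.1. Reads were counted per gene by STAR, and the strand setting of the deposited counts is not given in the sources used here. Reads were found for 470 of 716 genes that lie inside an exon of the opposite strand in GENCODE 44. Counting without strand would leave such genes empty if GENCODE 25 places them alike, which was not checked. The count tables listed 58037 genes, of which 45 pseudoautosomal copies without reads were left out. Names for 56948 of the 57992 remaining genes came from GENCODE 44.

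Genes with enough reads (filterByExpr, minimum count 10 and minimum total 15) were scaled by trimmed mean and tested in R 4.3.3 with edgeR 4.0.16 (quasi-likelihood F test, Benjamini-Hochberg adjustment) within the 6 untreated libraries, and separately within the 6 etoposide-treated ones. The SE is the absolute log2 fold change divided by the square root of F. Where a line had 0 reads, the fold is a lower bound against 3 reads over its 3 libraries (0.053 CPM in THP-1 and 0.0486 CPM in NOMO-1). Where it had 1 to 3 reads, a ratio with an exact 95% counting interval is given, which covers counting error only. DESeq2 1.42.0, the edgeR exact test, other scalings and filters, the fold minimum, a replicate block and the omission of each library were alternatives. In simulated untreated counts of 15216 genes, 100 genes were changed 3-fold and 100 genes 8-fold, with no other difference between the groups. All 100 of 100 genes changed 3-fold were recovered with 2 false calls among all genes. The changed genes had a mean above 100 reads and were far fewer than the 5875 called here. The simulation therefore does not bear on genes with few reads or on scaling when many genes differ.

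The members and the 35 gene lists were chosen with earlier results of these data known. Of 696 list entries 694 matched a gene. Genes were named by rule: the 12 widest called protein-coding differences in each direction at 20 CPM or more, up to 4 called members per list with the highest level, every member of the lists for the fusion, HOX genes, monocyte markers, MHC class II, the drivers of the study and the chromosome 9 stretch, and up to 3 long noncoding RNA genes in each direction at 10 CPM or more. Some genes named by this rule, and 1 list, are not reported here. Every other gene given with a value was chosen after its values were seen. Of the genes named, HLA-B shares 32.7% of its exonic bases with another gene on its strand in GENCODE 44, HOXA4 31.3% and IFI6 23.1%. Coordinates are 1-based.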

Additional observations from a re-analysis of the deposited data

Results flagged for a closer look

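MEN1, the menin scaffold of KMT2A, and PLK1, a mitotic kinase, changed side between the treatments. For MEN1 every untreated THP-1 library lay below the NOMO-1 libraries (log2 fold change -0.17), and every etoposide-treated one lay above (0.46). PLK1 was at -0.26 untreated and 0.42 after etoposide, again with every library on the side of its line. Neither gene passed the fold threshold in either comparison, and the difference between the treatments was not tested.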

How the results depend on the processing

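The number of genes called depended on the fold minimum and on the filter for low levels, as their construction implies. With a mean of at least 5 CPM required, 3026 genes were called untreated (1401 higher in THP-1, 1625 in NOMO-1) and 3077 after etoposide (1358 and 1719). Without a fold minimum the counts were 12119 (6122 and 5997) and 10513 (5327 and 5186), and with a minimum of 4-fold 3136 (1459 and 1677) and 3194 (1473 and 1721). Leaving out each library in turn gave 6030 to 6227 untreated calls (2748 to 2945 and 3149 to 3368) and 6143 to 6260 treated ones (2743 to 3017 and 3194 to 3462). These totals lie above the main ones of 5875 and 5932. More genes also passed the filter then, 15890 to 16005 untreated against 15584, and 16134 to 16243 treated against 15808. DESeq2 called 5838 genes, the exact test 5874, and no low-count filter 7875. Scaling by library size alone moved the median log2 fold change of all genes from 0.011 to -0.107 untreated and from 0.022 to -0.18 after etoposide, and 9 of 169 called named genes lost their call. In all, 12 named genes lost it in at least 1 alternative other than the 4-fold minimum, all near 2-fold, among them APAF1, BCL2L2, CASP1, GSDMD, IDH1, IFNAR2, KMT2C, MCL1, MCM2, RAC2 and RUNX1. No called named gene turned its direction. Among genes not called, KMT2A lay between -0.097 and 0.061 without single libraries and was above 0 without NOMO-1 replicate 1 (0.061) or THP-1 replicate 2 (0.038). ROCK1 lay between -0.165 and 0.071, the latter without NOMO-1 replicate 1, and the cause was not tested.

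With a replicate block, 5873 genes were called untreated (2769 and 3104) and 5922 after etoposide. Whether the replicate numbers pair the libraries was not tested. Deviations of same-numbered libraries of the lines had correlations of 0.14, -0.015 and 0.12 untreated, and those of differently numbered ones lay between -0.158 and 0.052. After etoposide the same-numbered ones had -0.28, -0.27 and 0.117, and the differently numbered ones lay between -0.297 and 0.43.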
